A study of Rattus norvegicus with 9 samples.

Results

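The potassium channel genes on the array were taken as every gene whose symbol starts with Kcn and whose probe set carries that symbol alone, which gave 83 genes among 14324 genes with a single symbol. Each of the 83 had 1 probe set, so no choice between probe sets was needed, and 1 further probe set that carries *Kcnk16* and *Kcnk5* together was left out. Gene expression had been measured in rat aortic smooth muscle cells (RASMC), a commercial low-passage culture that was made quiescent in low serum and rinsed with K+-free medium before treatment. The 9 Affymetrix Rat Gene 1.0 ST arrays comprised 3 Control arrays (complete DMEM), 3 Ouabain arrays (DMEM with 3 mM ouabain) and 3 K_Free arrays (DMEM without K+), all after 6 hr. The methods describe 3 independent experiments with the conditions run in parallel, all from this single type of commercial culture. In bulk RNA of this kind, fewer cells of a type and less RNA per cell cannot be told apart.

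K+ channels let K+ leave the cell down the gradient that Na+,K+-ATPase maintains, and in arterial smooth muscle this current holds the membrane potential negative and limits Ca2+ entry through voltage-gated Ca2+ channels. The family comprises voltage-gated (Kv) pore subunits with their silent and accessory partners, inward rectifiers (Kir), K2P leak channels with tandem pore domains, and channels opened by intracellular Ca2+ or Na+. Ouabain blocks Na+,K+-ATPase by binding its catalytic subunit, whereas K+-free medium withdraws the ion that the pump carries inward.

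Upstream sequences were found in RefSeq (assembly GRCr8) for 58 of the 83 genes, as 64 windows of 250 bases before a listed transcript start. The windows of *Kcne4*, *Kcnq5* and *Kcnj8* are shown because these genes differed most between ouabain and K+-free medium among those with a window, and that of *Kcnmb1* because its signal was lower under both treatments. They are written 5′ to 3′ on the strand of the gene, with matches to the searched motifs in capitals:
Kcne4, chr9:87695798-87696047 (plus strand): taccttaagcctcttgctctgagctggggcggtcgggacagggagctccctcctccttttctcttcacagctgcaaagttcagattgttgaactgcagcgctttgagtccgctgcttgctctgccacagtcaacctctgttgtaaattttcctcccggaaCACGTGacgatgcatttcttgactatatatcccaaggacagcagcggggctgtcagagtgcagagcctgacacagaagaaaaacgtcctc
Kcnq5, chr9:31891282-31891531 (minus strand): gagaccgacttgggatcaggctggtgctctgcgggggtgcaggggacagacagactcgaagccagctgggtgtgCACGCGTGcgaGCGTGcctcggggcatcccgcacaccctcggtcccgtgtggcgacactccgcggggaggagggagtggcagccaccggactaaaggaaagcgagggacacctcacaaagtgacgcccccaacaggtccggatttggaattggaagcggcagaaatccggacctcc
Kcnj8, chr4:177246549-177246798 (minus strand): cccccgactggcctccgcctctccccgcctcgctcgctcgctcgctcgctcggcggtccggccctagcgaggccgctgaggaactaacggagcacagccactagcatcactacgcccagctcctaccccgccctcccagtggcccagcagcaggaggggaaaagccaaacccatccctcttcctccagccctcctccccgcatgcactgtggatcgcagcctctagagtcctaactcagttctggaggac
Kcnmb1, chr10:19061849-19062098 (plus strand): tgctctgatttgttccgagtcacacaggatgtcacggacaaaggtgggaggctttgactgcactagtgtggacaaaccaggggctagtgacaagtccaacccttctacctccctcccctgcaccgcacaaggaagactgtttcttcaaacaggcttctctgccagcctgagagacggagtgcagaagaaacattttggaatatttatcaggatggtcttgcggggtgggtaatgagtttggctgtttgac
Both strands were searched for the E-box CACGTG, for the core of the hypoxia response element (ACGTG or GCGTG), for the AP-1 element TGANTCA, for the cyclic AMP response element TGACGTCA and for the CArG box, a motif of serum response factor. The *Kcne4* window held an E-box 90 to 85 bases before the start, within which the hypoxia response core ACGTG is also read on either strand. In the window of *Kcnq5* the core GCGTG occurred 3 times, between 176 and 161 bases before the start, where a pair of its matches on opposite strands overlap. None of these motifs occurred in the windows of *Kcnj8* and *Kcnmb1*. Over all 64 windows of the channel genes, the E-box was present in 3.12% (5.59% of all 33469 windows in RefSeq), the hypoxia response core in 43.8% (36.7%) and the AP-1 element in 3.12% (6.34%). The CArG box and the cyclic AMP response element were present in 0 of the 64 windows, and in 1.5% and 1.59% of all windows. The starts of *Kcne4*, *Kcnq5* and *Kcnmb1* used here lie inside the annotated gene, and other starts of these genes were not searched.

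Most K+ channel genes gave low signals in control cells. The deposited values are log2 signals, on which a difference of 1 is a doubling, and array medians over all 27342 probe sets lay between 6.76 and 6.80. The mean of the control arrays was above the array median for 18 of the 83 channel genes (21.7%), against 56.7% of all genes with a single symbol. Measured against the median of probe sets with a single symbol instead, 6 channel genes were above it (7.23%, against 48.9% of all such genes). These were *Kcnd3*, *Kcnip3*, *Kcnk2*, *Kcnmb1*, *Kcnn4* and *Kcnq5*. The 18 genes comprised the Kv pore genes *Kcna2*, *Kcnd1*, *Kcnd3*, *Kcnh2* and *Kcnq5*, the silent subunits *Kcng1* and *Kcng2*, the accessory subunits *Kcne4* and *Kcnip3*, the inward rectifiers *Kcnj8* and *Kcnj12*, the leak channels *Kcnk2*, *Kcnk6* and *Kcnk18*, the Ca2+-activated channel genes *Kcnn1*, *Kcnn4* and *Kcnmb1*, and the Na+-activated channel gene *Kcnt2*. Just above the median lay *Kcnt2* (6.83) and *Kcna2* (6.84), and just below it *Kcnk13* (6.72) and *Kcnk4* (6.68). Apart from their place relative to a median or in bins of control signal, signals of different probe sets are not compared with each other here. Replicates were close: the median SD of a channel gene within a group was 0.0735 on the log2 scale and the highest was 0.395.

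Ouabain lowered 9 channel genes and raised 17, and K+-free medium lowered 6 and raised 15. The falls were the larger changes, reaching -1.25 and -1.35 on the log2 scale for *Kcnn4*, whereas the rises lay between 0.27 and 0.47 apart from *Kcne4* in ouabain (1.07). A gene was counted as changed at a Benjamini-Hochberg adjusted p under 0.05 over all 27342 probe sets (limma) and a fold above 1.2. By this rule 26 of 83 channel genes (31.3%) were changed in ouabain, against 32.5% of all probe sets and 40.2% of all genes with a single symbol. Rises made up 20.5% of the channel genes (all probe sets, 15.8%; single-symbol genes, 17.5%) and falls 10.8% (16.8% and 22.7%). In K+-free medium 21 of 83 (25.3%) were changed, against 33.9% of all probe sets and 41.7% of genes with a single symbol, with rises in 18.1% (16.1% and 17.8%) and falls in 7.23% (17.9% and 24.0%). Treated and control arrays did not overlap for 44 channel genes in ouabain (53.0%, against 54.2% of all probe sets) and 47 without K+ (56.6%, against 57.1%). With 3 arrays on either side, p = 0.1 is the lowest that an exact permutation test (2-sided) of a single gene could reach. The same 3 control arrays served both comparisons.

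**Figure D1:**
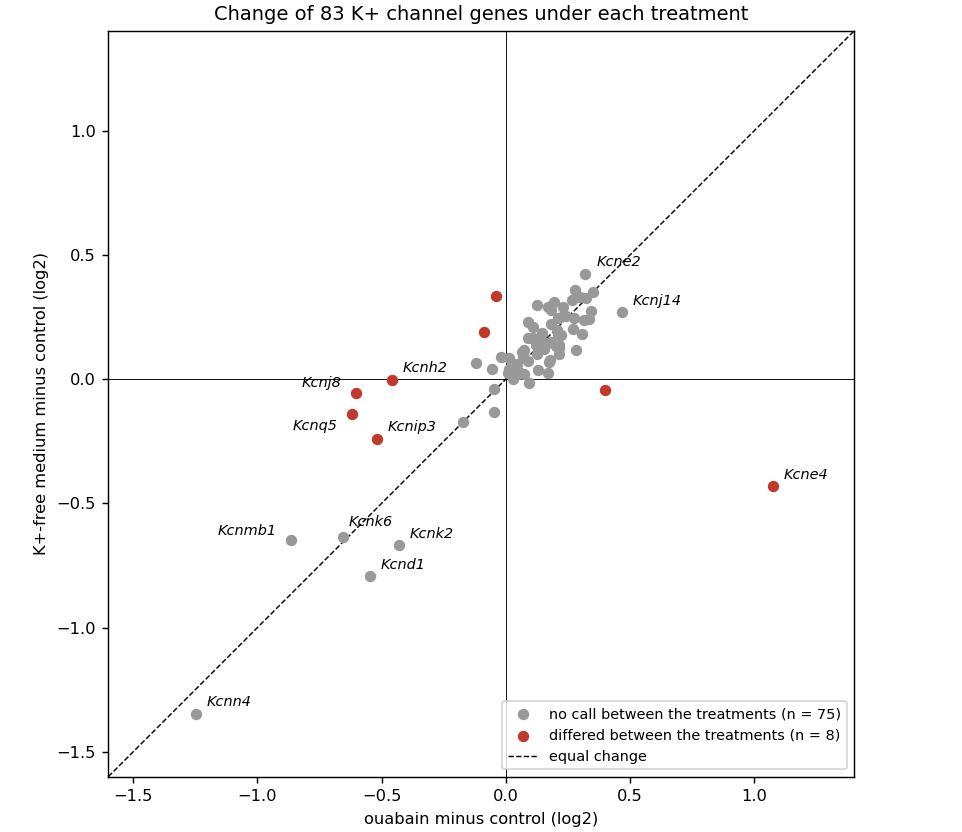
Change of the 83 K+ channel genes in K+-free medium (vertical axis, log2) against their change in ouabain (horizontal axis, log2), both relative to the same 3 control arrays. Each point is 1 gene, red where K+-free medium and ouabain differed (8 genes) and grey otherwise (75 genes), and genes with a change beyond 0.42 are named: *Kcnn4* lies at the lower left (-1.25, -1.35) and *Kcne4* at the right (1.07, -0.43).

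The 18 genes with a control signal above the median of all probe sets held the falls of both comparisons. Of these 18, ouabain lowered 9 (50%) and raised 3 (16.7%), and K+-free medium lowered 6 (33.3%) and raised 3 (16.7%). This split turned on the reference level: the 6 genes above the median of single-symbol probe sets held 5 of the 9 falls in ouabain and 3 of the 6 in K+-free medium. Of the 65 channel genes at or below the median, 14 rose with ouabain and 12 without K+, and none fell by the limma rule, although 31 and 34 of them had an unadjusted p under 0.05 in either direction. Dim probe sets as a whole leaned the same way: of 13684 at or below the median, ouabain raised 1428 and lowered 243, and K+-free medium raised 1398 and lowered 294, with median changes of 0.10 and 0.09. The 13658 brighter probe sets had median changes of -0.02 and -0.04, with 2884 rises and 4340 falls in ouabain. The control arrays enter both the level and the change. The number of rises depended on the scaling between arrays. Repeating the quantile normalization left 8 rises and 9 falls in ouabain and 7 rises and 5 falls in K+-free medium, and centring each array on *B2m* left 2 and 11 in ouabain and 1 and 10 in K+-free medium. The median change of the channel genes went from 0.14 for ouabain and 0.13 for K+-free medium to 0.07 and 0.06 after repeated quantile normalization and to -0.01 and -0.03 with centring on *B2m*. Over all probe sets the median change was 0.07 and 0.06, and with centring on *B2m* -0.08 and -0.10.

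**Figure D2:**
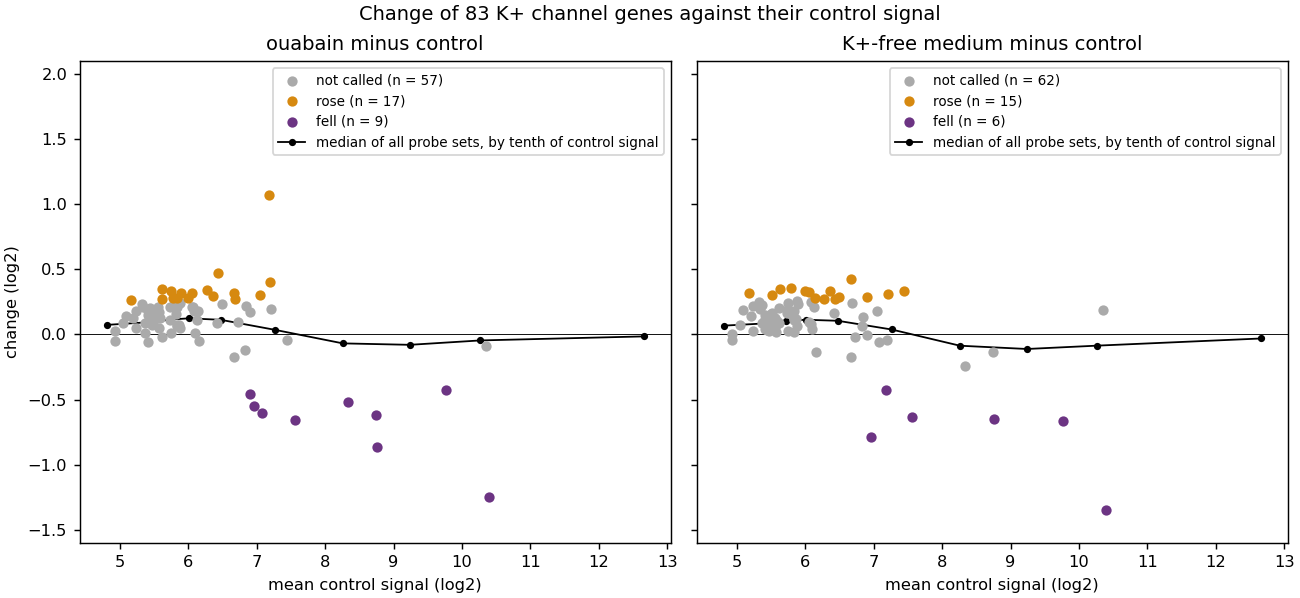
Change (log2) of each of the 83 K+ channel genes in ouabain (left) and K+-free medium (right) against its mean control signal (log2), with genes that rose in orange, genes that fell in purple and the others in grey. The black line joins the median changes of all probe sets in 10 bins of control signal with near-equal numbers of probe sets. It lies above 0 at low and below 0 at high signals, and the falls lie at control signals between 6.91 and 10.39.

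Among the Ca2+-activated channel genes, *Kcnn4* and *Kcnmb1* fell under both treatments, 2 of 8 members measured. These falls are 25% of the group, beside 16.8% of all probe sets in ouabain and 17.9% in K+-free medium. *Kcnn4* encodes the intermediate-conductance channel KCa3.1, known from proliferating smooth muscle cells. Its signal was 10.46, 10.39 and 10.33 on the control arrays, 9.24, 9.09 and 9.10 in ouabain, and 8.98, 9.07 and 9.08 in K+-free medium. All treated arrays were thus over 1 unit below all controls. The fall was 2.38-fold in ouabain (log2 change -1.25, SE 0.0609, limma adjusted p = 3.525e-08) and without K+ it was 2.54-fold (-1.35, SE 0.0609, adjusted p = 1.732e-08), and the difference between the treatments (-0.10, SE 0.0609) did not pass the test (adjusted p = 0.345). *Kcnmb1* encodes the β1 subunit that raises the Ca2+ sensitivity of the large-conductance BK channel in smooth muscle. Its signal was 8.92, 8.72 and 8.62 on the control arrays, 7.85, 8.06 and 7.76 in ouabain, and 8.17, 8.18 and 7.96 in K+-free medium. The control arrays lay above all treated arrays. The change was -0.86 in ouabain (SE 0.0989, adjusted p = 2.568e-05) and reached -0.65 in the absence of K+ (SE 0.0989, adjusted p = 2.328e-04). In RefSeq *Kcnmb1* overlaps *Kcnip1*, which lies on the opposite strand and was not changed (-0.05 and 0.04).

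*Kcnma1*, the BK pore subunit that *Kcnmb1* accompanies, gave a control mean of 5.84, below the array median. Its arrays lay between 5.76 and 6.04 in all conditions and overlapped, with changes of 0.07 and 0.11 (SE 0.0647) that did not pass the test (limma adjusted p = 0.431 and 0.195). The small-conductance channel gene *Kcnn1* gave 7.43, 7.52 and 7.38 on the control arrays, 7.48, 7.25 and 7.49 in ouabain, and 7.76, 7.62 and 7.95 in K+-free medium. Ouabain arrays overlapped the controls (-0.04), whereas K+-free medium raised the gene by 0.33 (SE 0.0913, adjusted p = 0.0118). Without K_Free replicate 3 this rise was 0.25 and no longer passed the fold limit. The other members of the group were not called under either treatment. Of the Na+-activated channel genes, 0 of 2 changed in ouabain and 1 of 2 rose in K+-free medium, by less than 0.30. That rise was kept in 13 of 24 alternatives. Of all probe sets, 32.5% changed in ouabain and 16.1% rose in K+-free medium.

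**Figure D3:**
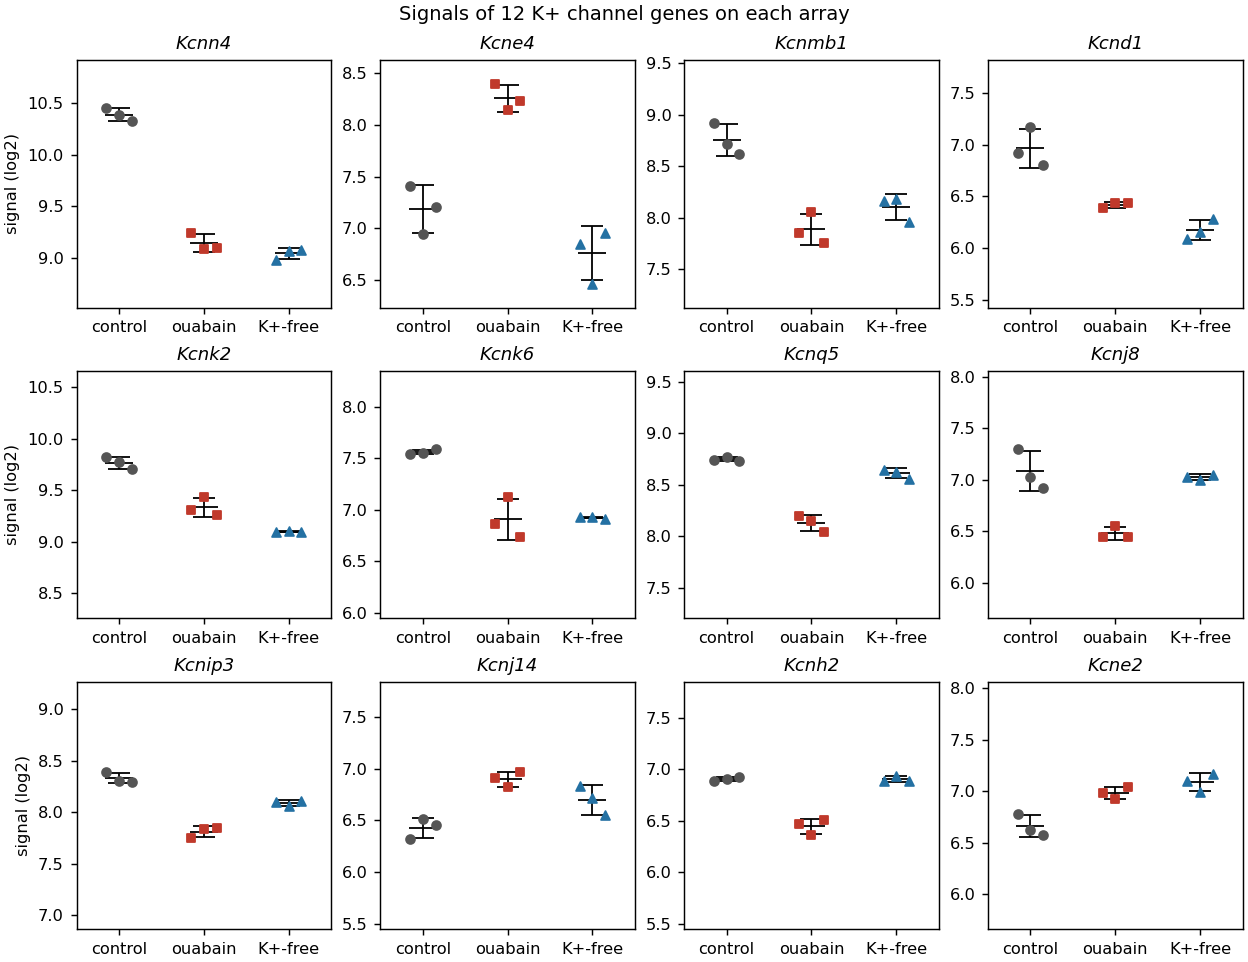
Log2 signal (vertical axis) of 12 K+ channel genes on the 3 Control (grey circles), 3 Ouabain (red squares) and 3 K_Free arrays (blue triangles), with bars for the mean and SD of each group; all panels span the same range of log2 units. Control arrays lie above all treated arrays for *Kcnn4*, *Kcnmb1*, *Kcnd1*, *Kcnk2*, *Kcnk6*, *Kcnq5* and *Kcnip3*, and the signal of *Kcne4* averages 7.18 in control, 8.26 in ouabain and 6.75 in K+-free medium.

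The leak channels *Kcnk2* and *Kcnk6* fell in both conditions, as 2 of 11 K2P genes. *Kcnk2* encodes TREK-1, which opens on membrane stretch. Its signal was 9.82, 9.77 and 9.70 on the control arrays, 9.31, 9.44 and 9.26 in ouabain, and 9.10, 9.10 and 9.09 in K+-free medium. The conditions formed 3 separate groups, in falling order from control through ouabain to K+-free medium. The change was -0.43 in ouabain (SE 0.0583, limma adjusted p = 1.013e-04) and reached -0.67 in K+-free cells (SE 0.0583, adjusted p = 2.569e-06), and the difference of -0.24 (adjusted p = 0.0124) stayed under the fold limit. *Kcnk6*, which encodes TWIK-2, a leak channel known in pulmonary and systemic arteries, gave 7.55, 7.55 and 7.59 on the control arrays. In ouabain it gave 6.86, 7.12 and 6.74, and in K+-free medium 6.93, 6.93 and 6.92. The treated arrays lay below the controls and those of K+-free medium lay inside the ouabain range. The changes were -0.65 (SE 0.0825, adjusted p = 5.685e-05) and -0.64 (adjusted p = 6.658e-05). *Kcnk3*, the acid-sensitive TASK-1 channel of arterial smooth muscle, was below the array median in control (6.42) and had changes of 0.09 and 0.17 (SE 0.0541). The second of these had an adjusted p of 0.0271 but a fold of only 1.12. A further 3 K2P genes rose in ouabain by 0.31 or less, and none rose in K+-free medium. Rises and falls made up 27.3% and 18.2% of the K2P genes in ouabain (all probe sets, 15.8% and 16.8%). Falls made up 18.2% in K+-free medium, where 16.1% of all probe sets rose and 17.9% fell.

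Of the inward rectifiers, *Kcnj8* answered ouabain and not K+-free medium. *Kcnj8* encodes Kir6.1, the pore of the vascular ATP-sensitive K+ channel, and its signal was 7.30, 7.03 and 6.92 on the control arrays. It was 6.45, 6.55 and 6.44 in ouabain, but 7.03, 7.00 and 7.05 in K+-free medium. Ouabain arrays were below all others, and K+-free arrays lay within the control range. The fall in ouabain was 1.52-fold (-0.60, SE 0.0847, limma adjusted p = 1.327e-04), the change in K+-free medium -0.05 (SE 0.0847, adjusted p = 0.627), and the difference between the treatments 0.55 (SE 0.0847, adjusted p = 6.873e-04). The regulatory subunit of this channel, *Abcc9* (SUR2), had a control mean of 7.96 and rose in K+-free medium by 0.43 (SE 0.0676, adjusted p = 3.028e-04). In ouabain its change of 0.17 did not pass the test (adjusted p = 0.0642), and the difference of 0.26 between the treatments (adjusted p = 0.0169) stayed under the fold limit.

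*Kcnj14*, which encodes the strong inward rectifier Kir2.4, gave 6.32, 6.51 and 6.46 on the control arrays, 6.91, 6.82 and 6.97 in ouabain, and 6.84, 6.71 and 6.55 in K+-free medium. All treated arrays lay above the controls, by a small margin in K+-free medium. Ouabain raised it by 0.47 (SE 0.08, limma adjusted p = 5.926e-04), and the absence of K+ by 0.27 (SE 0.08, adjusted p = 0.0179). The second call was lost without Control replicate 1 (0.21), K_Free replicate 1 (0.20) or K_Free replicate 2 (0.26). *Kcnj2*, the classical Kir2.1 of arterial smooth muscle, lay below the array median in control (6.08) with changes of 0.18 and 0.08 (SE 0.0783) that did not pass the test (adjusted p = 0.0901 and 0.452). In all, ouabain raised 3 of 15 inward rectifiers and lowered 1, and K+-free medium raised 3 and lowered none. Rises and falls made up 20% and 6.67% of them in ouabain (all probe sets, 15.8% and 16.8%). Rises made up 20% in K+-free medium, where 16.1% of all probe sets rose and 17.9% fell.

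Of the Kv4 and Kv7 pore genes, *Kcnd1* fell under both treatments and *Kcnq5* in ouabain, while *Kcnq3* rose under both and *Kcnq1* in K+-free medium. In the Kv4 group of A-type channels, *Kcnd1* (Kv4.1) gave 6.92, 7.17 and 6.80 on the control arrays, 6.39, 6.43 and 6.43 in ouabain, and 6.08, 6.16 and 6.28 in K+-free medium. The 3 conditions did not overlap, in the order control, ouabain, K+-free medium. The change was -0.55 in ouabain (SE 0.0873, limma adjusted p = 3.495e-04) and -0.79 in K+-free medium (SE 0.0873, adjusted p = 1.762e-05), and the difference of -0.24 between the treatments did not pass the test (adjusted p = 0.0759). *Kcnd3* (Kv4.3) gave 10.38, 10.32 and 10.36 on the control arrays, 10.26, 10.19 and 10.34 in ouabain, and 10.61, 10.53 and 10.49 in K+-free medium. Its changes of -0.09 and 0.19 against control were not called, but the signal in K+-free medium exceeded that in ouabain by 0.28 (SE 0.0571, adjusted p = 0.00423). That call fell under the fold limit without Ouabain replicate 2 (0.24) or K_Free replicate 1 (0.25).

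The Kv7 gene *Kcnq5*, whose product contributes to a current that is active near the resting potential of vascular muscle, gave 8.74, 8.77 and 8.73 on the control arrays. It gave 8.20, 8.15 and 8.04 with ouabain and 8.65, 8.63 and 8.55 without K+. Ouabain arrays lay well below, and those of K+-free medium slightly below, the controls. Ouabain lowered it 1.54-fold (-0.62, SE 0.0552, limma adjusted p = 3.449e-06), the change in K+-free medium was -0.14 (adjusted p = 0.0616), and the treatments differed by 0.48 (SE 0.0552, adjusted p = 8.952e-05). *Kcnq1* (Kv7.1) stood at 6.50 in control, 6.73 with ouabain and 6.79 without K+. It rose by 0.29 in K+-free medium (SE 0.0661, adjusted p = 0.00405; 0.25 and under the fold limit without K_Free replicate 2), while the change of 0.23 in ouabain (adjusted p = 0.0152) had a fold of 1.17. *Kcnq3*, which pairs with other Kv7 subunits in neurons, rose by 0.30 in ouabain (adjusted p = 0.0031; 0.25 and under the fold limit without Ouabain replicate 3), and K+-free medium raised it by 0.33 (adjusted p = 0.00139).

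*Kcnh2*, the ether-a-go-go related gene (ERG) whose channel repolarises the heart, gave 6.88, 6.91 and 6.93 on the control arrays, 6.47, 6.36 and 6.51 in ouabain, and 6.89, 6.94 and 6.89 in K+-free medium. Ouabain arrays were the lowest and those of K+-free medium overlapped the controls. The fall in ouabain was 1.37-fold (-0.46, SE 0.0528, limma adjusted p = 2.651e-05), and K+-free medium exceeded ouabain by 0.46 (SE 0.0528, adjusted p = 9.041e-05). Of the other 7 ether-a-go-go genes, 1 rose in ouabain and none changed by the limma rule in K+-free medium. Rises and falls each made up 12.5% of the 8 genes in ouabain (all probe sets, 15.8% and 16.8%). In K+-free medium 33.9% of all probe sets changed.

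Delayed rectifiers of the Kv1, Kv2 and Kv3 groups did not fall under either treatment by the limma rule. All but *Kcna2* lay at or below the array median in control, where 1.78% of all probe sets fell in ouabain and 2.15% in K+-free medium. *Kcna5* (Kv1.5), a main Kv channel of arterial smooth muscle, gave 5.48 on average in control, 5.55 in ouabain and 5.57 in K+-free medium, below the array median throughout, and the changes of 0.07 and 0.09 (SE 0.0661) did not pass the test (adjusted p = 0.427 and 0.275). *Kcna2* (Kv1.2) stood at 6.84, 7.06 and 6.98. Its change of 0.22 in ouabain (adjusted p = 0.0255) had a fold of 1.16, and that of 0.14 in K+-free medium did not pass the test (adjusted p = 0.126). *Kcna3* (Kv1.3), known from lymphocytes and from proliferating smooth muscle, gave 5.51, 5.65 and 5.71 on the control arrays, 5.92, 5.91 and 6.09 in ouabain, and 5.91, 6.00 and 6.01 in K+-free medium. All treated arrays lay above the controls, and the gene rose by 0.35 in each condition (SE 0.07, adjusted p = 0.00179 and 0.00165), although the calls in both conditions were lost after repeated quantile normalization and with centring on *B2m*. *Kcnc1* (Kv3.1), a channel of fast-spiking neurons, was raised by ouabain (0.28, adjusted p = 0.0277) as well as by K+-free medium (0.36, adjusted p = 0.00706). The ouabain call did not hold without Control replicate 1 (0.20) or any of the ouabain arrays (0.26 to 0.30), and that in K+-free medium not without K_Free replicate 2 (0.26). Of 8 Kv1 genes, 2 rose in ouabain (25%, all probe sets 15.8%) and 1 in K+-free medium (12.5%, all probe sets 16.1%).

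Silent subunits do not form channels alone and modify Kv2 pores. Of 10 measured, 3 rose with ouabain and 3 without K+ (30% each, beside 15.8% and 16.1% of all probe sets). None fell, beside 16.8% and 17.9% of all probe sets. All but *Kcng1* and *Kcng2* lay at or below the array median in control, where 1.78% of all probe sets fell in ouabain and 2.15% in K+-free medium. *Kcng1* (Kv6.1) gave 7.25, 7.16 and 7.16 on the control arrays, 7.81, 7.31 and 7.66 in ouabain, and 7.04, 7.21 and 7.19 in K+-free medium. Ouabain arrays lay above all others but were spread over 0.5 units. The rise in ouabain was 0.40 (SE 0.107, limma adjusted p = 0.0107), and the signal in K+-free medium lay below that in ouabain (difference -0.44, adjusted p = 0.0114), a call lost without K_Free replicate 1 (-0.39, adjusted p = 0.0508). *Kcng3* (Kv6.3) rose by 0.28 (adjusted p = 0.0041) and 0.33 (adjusted p = 0.00137), the first under the fold limit without Control replicate 1 (0.26) or Ouabain replicate 1 (0.22).

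The accessory subunit *Kcne4* changed in opposite directions. *Kcne4* encodes a single-span membrane protein that alters the gating of Kv7 and Kv1 channels. Its signal was 7.41, 6.94 and 7.20 on the control arrays, 8.40, 8.14 and 8.24 in ouabain, and 6.85, 6.46 and 6.96 in K+-free medium. Ouabain arrays exceeded all others, whereas the highest K+-free array lay just above the lowest control. Ouabain raised it 2.11-fold (1.07, SE 0.141, limma adjusted p = 7.69e-05), while K+-free medium lowered it 1.35-fold (-0.43, SE 0.141, adjusted p = 0.0279). The treatments differed 2.84-fold (-1.50, SE 0.141, adjusted p = 2.054e-05). The fall in K+-free medium was no longer called without Control replicate 1 (-0.32), Control replicate 3 (-0.42) or K_Free replicate 2 (-0.28), nor in 5 other alternatives.

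*Kcnip3*, which encodes a Ca2+-binding protein that accompanies Kv4 channels and also binds DNA as DREAM, gave 8.39, 8.31 and 8.29 on the control arrays. It gave 7.75, 7.83 and 7.85 with ouabain and 8.09, 8.06 and 8.11 without K+. The conditions did not overlap, with K+-free medium between the others. The change was -0.52 in ouabain (SE 0.0517, limma adjusted p = 8.413e-06) but -0.24 in K+-free medium (adjusted p = 0.00284, fold 1.18), and the treatments differed by 0.28 (adjusted p = 0.00228; 0.25 and under the fold limit without Ouabain replicate 1). *Kcne2*, a relative of *Kcne4* that accompanies *Kcnh2* and *Kcnq1* products, gave 6.78, 6.63 and 6.58 on the control arrays, 6.98, 6.93 and 7.04 in ouabain, and 7.10, 7.00 and 7.17 in K+-free medium. All treated arrays lay above the controls, and the gene rose by 0.32 (SE 0.0681, adjusted p = 0.00271) and 0.42 (SE 0.0681, adjusted p = 3.461e-04). Of the 12 accessory subunits of voltage-gated channels, ouabain raised 3 and lowered 1, and K+-free medium raised 2 and lowered 1. Rises and falls made up 25% and 8.33% in ouabain (all probe sets, 15.8% and 16.8%). In K+-free medium they made up 16.7% and 8.33% (all probe sets, 16.1% and 17.9%).

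The smaller rises rested on single arrays and on the scaling. Leaving out each array in turn ended 11 of the 17 rises in ouabain at least once, with values of 0.20 to 0.30 where the call was lost, and each of the 6 arrays compared ended at least 1 of them. In K+-free medium 9 of 15 rises were ended in this way (values of 0.19 to 0.27). None of the 9 falls in ouabain was ended by leaving out an array, by repeated quantile normalization, by centring on *B2m* or by cyclic loess, and in K+-free medium only that of *Kcne4* among the 6 falls was. Under the 3 scalings, 2 of the 17 rises in ouabain (*Kcne4* and *Kcnj14*) and 1 of the 15 in K+-free medium (*Kcne2*) remained called each time.

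Between the treatments, 8 of 83 channel genes differed (9.64%), against 16.4% of all probe sets and 21.6% of genes with a single symbol. The signal was higher in K+-free medium for 6 genes (7.23%, all probe sets 8.45%) and lower for 2 (2.41%, all probe sets 7.97%). Arrays of the 2 treatments did not overlap for 16 channel genes (19.3%, all probe sets 32.4%). The largest differences were those of *Kcne4* (-1.50), *Kcnj8* (0.55), *Kcnq5* (0.48), *Kcnh2* (0.46) and *Kcng1* (-0.44), followed by *Kcnn1* (0.37, SE 0.0913, limma adjusted p = 0.0125), *Kcnd3* and *Kcnip3* (both 0.28). All 8 belong to the 18 genes above the median of all probe sets in control, but 3 of the 8 to the 6 above that of single-symbol probe sets. Brighter probe sets as a whole differed more often: 29.5% of those above the median did, and 3.35% of those at or below it. Of the 65 dimmer genes none passed the limma test at the fold limit, and 4 had an unadjusted p under 0.05.

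**Figure D4:**
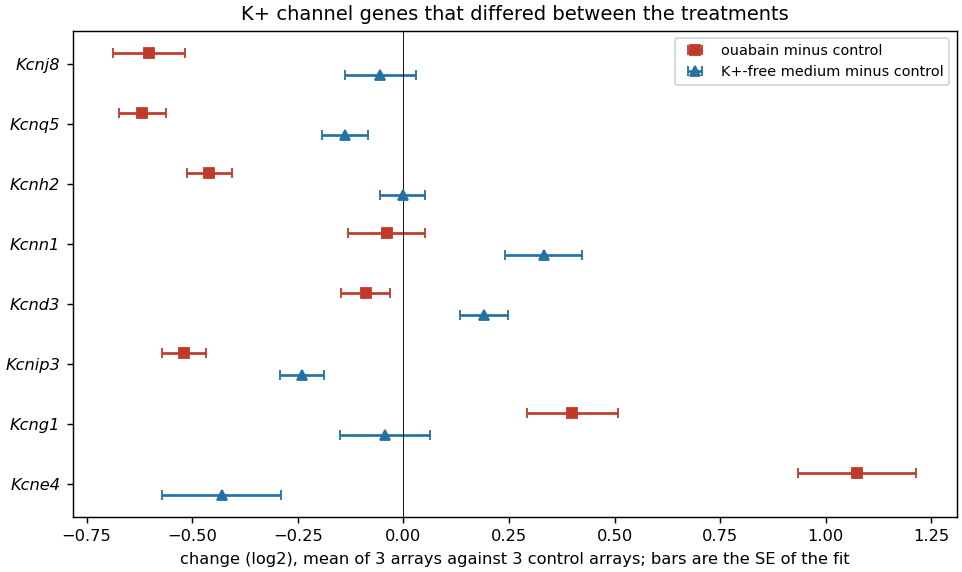
Change from control (log2, horizontal axis) of the 8 K+ channel genes that differed between the treatments, in ouabain (red squares) and K+-free medium (blue triangles), as means of 3 arrays against 3 control arrays with bars for the SE of the fit. *Kcnj8*, *Kcnq5* and *Kcnh2* lie at -0.60, -0.62 and -0.46 in ouabain and near 0 in K+-free medium, and *Kcne4* lies on opposite sides of 0.

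Of 12 measured channel genes listed as known from arterial smooth muscle, ouabain lowered 6 (*Kcnn4*, *Kcnmb1*, *Kcnk6*, *Kcnq5*, *Kcnj8* and *Kcnk2*) and raised none, and K+-free medium lowered 4 and raised 1. These falls are 50.0% and 33.3% of the list, beside 16.8% and 17.9% of all probe sets. Of the 12 genes, 7 lay above the array median in control, where 31.8% of all probe sets fell in ouabain and 33.7% in K+-free medium. The median change of the list was -0.18 for ouabain and 0.01 for K+-free medium, beside 0.07 and 0.06 over all probe sets. With centring on *B2m*, the uncalled changes of *Kcnma1* and *Kcna5* took the opposite sign in both conditions.

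Genes that act with K+ channels but carry other symbols were read from a list of 16, of which 15 had a probe set. *Tmem175*, a K+ and proton channel of lysosomes and endosomes, showed the largest change of this list and of the channel genes described here. It fell from 10.75 (SD 0.084, n = 3) in control to 8.22 (SD 0.119) with ouabain and 9.18 (SD 0.119) without K+. The changes were -2.53 (SE 0.0798, limma adjusted p = 2.797e-09) and -1.57 (adjusted p = 3.772e-08), and the treatments differed by 0.96 (adjusted p = 9.091e-06). The TRIC channels of the sarcoplasmic reticulum, which carry K+ as a counter-ion to released Ca2+, rose: *Tmem38b* by 0.29 with ouabain and 0.37 without K+, and *Tmem38a* by 0.31 with ouabain (without K+ 0.04, difference -0.27, adjusted p = 0.00738). *Lrrc38*, which encodes an accessory γ subunit of the BK channel, rose from 5.42, below the array median, by 0.39 with ouabain (adjusted p = 0.0324) and 0.36 without K+ (adjusted p = 0.045). *Amigo1*, whose product accompanies Kv2 channels, rose by 0.28 with ouabain (adjusted p = 0.00621), and its change of 0.16 without K+ did not pass the test (adjusted p = 0.0837). In all, ouabain raised 4 of 15 and lowered 1, and K+-free medium raised 3 and lowered 1. These changes are 33.3% and 26.7% of the list, beside 32.5% and 33.9% of all probe sets.

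Transcription factors known to act on K+ channel genes of smooth muscle were measured for 6 of 7 on a further list. *Rest*, a repressor whose known targets include *Kcnn4*, stood at 10.16 (SD 0.0467, n = 3) in control, 10.51 (SD 0.0484) in ouabain and 10.83 (SD 0.0281) in K+-free medium. It rose by 0.35 (SE 0.0509, limma adjusted p = 1.806e-04) and 0.66 (adjusted p = 8.79e-07), and K+-free medium exceeded ouabain by 0.32 (adjusted p = 9.255e-04). *Nfatc3*, a Ca2+-dependent factor known to repress Kv and BK subunit genes in arteries, fell, with changes of -0.34 in ouabain (adjusted p = 3.717e-04) and -0.65 without K+ (adjusted p = 1.689e-06). Its relative *Nfatc4* fell as well (-0.28 and -0.51), and *Nfatc2* rose (0.47 and 0.66) from a control mean of 5.80, below the array median. *Srf*, which encodes serum response factor, fell in K+-free medium (-0.37, adjusted p = 6.646e-04), and its coactivator *Myocd* (myocardin) fell in ouabain (-0.26, adjusted p = 0.00159). The ouabain change of *Srf* (-0.25, adjusted p = 0.00853) and the K+-free change of *Myocd* (-0.18, adjusted p = 0.016) stayed under the fold limit. A link between these factors and the changes of channel genes was not tested.

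The cells carried smooth muscle transcripts: 6 of 7 measured markers lay above the array median in control, among them *Tagln* (13.60) and *Cnn1* (12.27), while *Des* lay below it. Of the 7 markers, 5 fell in ouabain (71.4%) and 3 in K+-free medium (42.9%). Of all probe sets 16.8% and 17.9% fell, and of those above the array median in control 31.8% and 33.7%. The contractile genes *Lmod1* (-1.61 and -1.48) and *Myh11* (-0.69 and -0.62) fell in both, as did *Cnn1* (-0.28 and -0.29), and *Smtn* fell in ouabain (-0.33; -0.19 and under the fold limit in K+-free medium). The arrays' mean signal of the list, relative to the array median, lay between 3.29 and 3.30 in control, between 2.78 and 2.92 with ouabain, and between 2.91 and 2.95 without K+. None of the 3 endothelial markers measured was above the array median in control, and of the 5 macrophage and leukocyte markers only *Cd14* was (7.97). The endothelial cadherin *Cdh5* rose from 5.60 by 0.40 with ouabain and 0.29 without K+, and the mean of its list relative to the array median ran from -1.11 to -1.07 in control, -0.93 to -0.87 with ouabain and -0.92 to -0.88 without K+. Among the macrophage and leukocyte markers, however, *Cd68*, *Cd14* and *Csf1r* rose in both conditions, 3 of 5 (all probe sets, 15.8% and 16.1%). The rise of *Cd68* was 1.29 with ouabain and 0.94 without K+. The mean signal of that list relative to the array median ran from -0.56 to -0.48 in control, 0.10 to 0.13 with ouabain and -0.15 to -0.03 without K+. Of 5 fibroblast markers, *Lum* (12.76) and *Pdgfra* (9.31) were above the array median in control. Both rose in K+-free medium, *Pdgfra* by 1.30 (ouabain -0.06) and *Lum* by 0.29. The mean of that list ran from 0.92 to 1.04 in control, 1.07 to 1.12 with ouabain and 1.35 to 1.41 without K+. Of 5 neuronal markers *Tubb3* was above the median and none changed by the limma rule. The part of these markers in the changes of channel genes was not tested.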

How the data were processed

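Values were measured on 9 Affymetrix Rat Gene 1.0 ST arrays, 3 per condition, and grouped by the labels. The deposited values are log2 signals that the authors made with RMA. The labels also name Partek, while the methods add MAS5 and GeneSpring. The labels give no version. No values were rescaled. Probe sets were named by the platform annotation, and all 83 symbols matched RefSeq. A linear model with a mean for each group was fitted to the 9 arrays together in limma 3.58.1 (R 4.3.3; data.table, version 1.17.8), its variances were moderated by eBayes (4.59 prior degrees of freedom, prior SD 0.0815), and p-values were adjusted by Benjamini-Hochberg over 27342 probe sets in each of 3 contrasts. The fit was tested on simulated data. The methods name an analysis of variance with a larger n than the 3 arrays per group used here. Named genes are the 12 largest called changes of each contrast and the arterial smooth muscle list, and called members of the other lists could be named too. *Kcnip1*, the genes above or nearest the array median and the uncalled markers were named after their values were seen. The members and lists were chosen with earlier results of these data known. Replicate correlations were 0.996 or more, and the number of arrays limits the precision. RefSeq windows were searched in Python 3.11.15 and figures drawn with matplotlib 3.10.9. Alternatives comprised other scalings, filters, tests, fold limits, a replicate block and leaving out each array.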

Additional observations from a re-analysis of the deposited data

How the results depend on the processing

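Counts of channel genes changed are given here as rises and falls, beside 17 and 9 in ouabain, 15 and 6 without K+ and 6 and 2 between the treatments. Repeated quantile normalization gave 8 and 9 (17 in all), 7 and 5 (12), and 4 and 2 (6). Centring on *B2m* gave 2 and 11 (13) for ouabain and 1 and 10 (11) for K+-free medium, and cyclic loess, chosen after seeing the data, gave 5 and 9 (14) and 5 and 6 (11). The methods' t-test after adjustment gave 10 rises in ouabain, 9 in K+-free medium, and between the treatments 5 changes with 1 fall. Analysis of variance without moderation gave 1 fall between the treatments. With no fold limit there were 27 rises in ouabain, 33 changes with 26 rises in K+-free medium, and 4 falls between the treatments, and with a fold above 1.5 there were 6 (1 rise, 5 falls), 5 (0 rises) and 1 (0 rises, 1 fall). Against the median of probe sets with a single symbol, 6 genes were above it in control instead of 18. Leaving out each array gave 20 to 27 changes in ouabain (11 to 18 rises, 9 falls), 16 to 23 in K+-free medium (11 to 17 and 5 to 7), 7 to 9 between the treatments (5 to 6 and 2 to 3) and 17 to 18 genes above the median. The 11 rises in ouabain were those without Ouabain replicate 3. Deviations of same-numbered arrays correlated with r of -0.05 to 0.31, and those of differently numbered arrays with r of -0.28 to 0.16. These values do not settle whether the numbers mark pairs, and the main fit did not use them as pairs. With the replicate block the counts were 26 (17 and 9), 21 (15 and 6) and 8 (6 and 2). Some uncalled changes took the opposite sign. Repeated quantile normalization gave -0.045 for *Kcnma1* and -0.018 for *Kcna5* in ouabain, and 0.021 for *Kcnj8*, -0.019 for *Kcnj2* and 0.055 for *Kcnq5* in K+-free medium. Centring on *B2m* gave -0.086 for *Kcnma1*, -0.084 for *Kcna5* and -0.063 for *Kcnk3* in ouabain, and -0.051 for *Kcnma1*, -0.082 for *Kcnj2*, -0.066 for *Kcna5* and -0.021 for *Kcna2* in K+-free medium. Cyclic loess gave -0.026 for *Kcnma1* and -0.019 for *Kcna5* in ouabain and -0.0051 for *Kcnj2* in K+-free medium. Leaving out single arrays moved *Kcnj8* in K+-free medium from -0.13 to 0.053 (above 0 without Control replicate 1). Between the treatments it moved *Kcnk6* from -0.065 (without Ouabain replicate 3; -0.0055 without Ouabain replicate 1) to 0.13, *Kcna5* from -0.054 (without Ouabain replicate 2) to 0.068 and *Kcnma1* from -0.0069 (without K_Free replicate 3) to 0.10. The cause of these shifts was not tested.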
